A study of Mus musculus with 37 samples.

Results

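Fibroblast growth factors (Fgf) and their receptors are the 10 genes described here: the secreted ligands Fgf8, Fgf9, Fgf10 and Fgf16, the intracellular family members Fgf12 and Fgf13, and the receptor tyrosine kinases Fgfr1, Fgfr2, Fgfr3 and Fgfr4. They were taken by symbol from a table of raw read counts with 25239 gene rows, and all 10 were present. Their levels were measured by bulk paired-end RNA sequencing of hearts dissected from mouse embryos at E10.5. The Nipbl product loads cohesin rings onto chromosomes, and the Isl1 product is a homeodomain factor found in cardiac progenitors. Fathers were Stra8-iCre; Nipbl Flox/+. Nipbl Flox works as a wild-type allele, and Nipbl FIN is the null allele that some of their sperm carried. Mothers were Isl1 Cre/+, with a Cre recombinase in 1 Isl1 allele that leaves a single working copy. The 4 genotypes were Nipbl +/+; Isl1 +/+ (here wild-type, n = 10), Isl1 +/- (n = 9), Nipbl +/- (n = 9) and Nipbl +/-; Isl1 +/- (here double heterozygous, n = 9). The working Nipbl allele from the father may be a Flox or a + allele in embryos that did not receive Nipbl FIN. The Isl1 +/- and double heterozygous embryos carry Cre. Whether that Cre acts on a Flox allele in these hearts is not given in the sources used here.

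Secreted Fgf ligands bind receptor tyrosine kinases together with heparan sulfate and signal through the Ras and Erk kinases to Ets transcription factors, while Sprouty, Spred and Dusp proteins damp the signal. In heart development Fgf8 and Fgf10 are known as ligands of the second heart field, the progenitor population outside the heart tube that adds muscle to its poles, and Isl1 is a marker of that population. Fgf9 and Fgf16 are known as signals from the epicardium and endocardium to the growing muscle. Fgf12 and Fgf13 belong to a branch of the family that stays in the cell and binds voltage-gated sodium channels.

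The libraries held 23.4 to 51.0 M counts (M, mega-counts; median 36.2 M). Each carries a set number in its label, the number after the letters IVF, and what the number stands for beyond that is not given in the sources used here. Set 1 held 3 wild-type and 3 Isl1 +/- libraries and none with Nipbl loss, sets 2, 5 and 6 held all 4 genotypes, and set 7 held only double heterozygous replicate 2. The set was a term of the main fit, so that there set 7 adds nothing to genotype differences and fitted changes of double heterozygotes rest on 8 libraries. Nipbl, as CPM (counts per mega-count after TMM scaling of the libraries), was lower than in every wild-type library in 8 of 9 Nipbl +/- and 8 of 9 double heterozygous libraries. Its fitted log2 change against wild-type was −0.74 in Nipbl +/- (adjusted p 0.000348, edgeR) and −0.82 in double heterozygotes (adjusted p 7.19e-05, edgeR). Nipbl +/- replicate 2 stood at 72.4 CPM, above the wild-type median of 57.0 CPM, and goes against its label. Fitted changes of Fgf8, Fgf10 and Fgfr4 are given with and without it. Exceptions are Fgf10 in Isl1 +/- against wild-type and Fgfr4 in the averaged Isl1 effect, given only with it. Without it, the Nipbl +/- means of Fgf9, Fgf12, Fgfr1, Fgfr2 and Fgfr3 were 6.41, 2.38, 47.3, 24.6 and 11.8 CPM. Isl1 averaged 7.37 ± 2.24 CPM in the wild-type group (SD, n = 10) and 6.28 ± 1.76 CPM in Isl1 +/- (SD, n = 9), and the groups overlapped; whether the Cre allele still gives counted Isl1 reads is not given in the sources used here, so Isl1 does not check that label. For Isl1, the fitted log2 change was −0.20 in Isl1 +/- against wild-type (adjusted p 0.877, edgeR). The effect of Isl1 loss averaged over Nipbl genotypes was −0.33 for Isl1 (adjusted p 0.3215, edgeR). The 8 cardiomyocyte markers were high in every library, with the lowest level of cardiac troponin T (Tnnt2) at 2545 CPM. The labels do not say that the libraries of a genotype came from separate litters, so p-values measure the spread between these libraries, and in whole hearts fewer cells of a type cannot be told apart from less RNA per cell.

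The stretch of 250 bases before the transcription start is shown for Fgf10 and Fgf9, the 2 secreted ligands among the 7 members with an entry in the RefSeq promoter table (GRCm38.p6). They are shown because Fgf10 had the smallest p of all members for the averaged effect of Isl1, a homeodomain factor, while the averaged Isl1 change of Fgf9 lay near 0. The RefSeq starts used lie 44.9 kb (Fgf10) and 2.1 kb (Fgf9) downstream of the outermost GENCODE M21 gene starts given below, and each coincides with the start of 1 protein-coding M21 transcript, of 3 transcripts of Fgf10 and 4 of Fgf9. TAAT, the core of many homeodomain binding sites, and its reverse complement ATTA are in capitals.
Fgf10 promoter, chr13:118714449-118714698, plus strand: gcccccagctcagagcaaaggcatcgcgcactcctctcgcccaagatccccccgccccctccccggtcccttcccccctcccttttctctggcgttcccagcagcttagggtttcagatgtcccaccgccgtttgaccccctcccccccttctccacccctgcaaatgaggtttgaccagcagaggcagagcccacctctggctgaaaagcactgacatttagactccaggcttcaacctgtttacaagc
Fgf9 promoter, chr14:58072436-58072685, plus strand: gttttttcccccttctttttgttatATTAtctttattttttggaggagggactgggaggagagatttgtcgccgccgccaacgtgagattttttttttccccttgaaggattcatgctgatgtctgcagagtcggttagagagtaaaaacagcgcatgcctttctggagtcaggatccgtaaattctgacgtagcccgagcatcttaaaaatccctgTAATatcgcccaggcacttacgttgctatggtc
The Fgf10 window held 0 matches on either strand and the Fgf9 window held 2, which lie 33 and 225 bases before the start. Over all RefSeq mouse promoters of this length, 18041 of 32851 (54.9%) held at least 1 match on either strand and 10117 (30.8%) held at least 2. A match describes the letters of this window only.

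Within wild-type hearts the members differed widely in level when counts were set on gene length, using the summed exon length of each gene in GENCODE M21 on GRCm38. Fgf13 (X:59062145-59568071, minus strand) was highest at 6.51 ± 0.774 CPM per kb (SD, n = 10). Fgfr1 (chr8:25513654-25575718, plus strand), the main receptor of many mesenchymal tissues, followed at 4.51 ± 0.734 CPM per kb, and the ranges of the 2 genes overlapped. Fgf8 (chr19:45736798-45742915, minus strand) had 2.19 ± 1.61 CPM per kb and Fgfr2 (chr7:130162451-133123350, minus strand) had 2.10 ± 0.332 CPM per kb, neighbours that did not differ beyond their spread. Fgf9 (chr14:58070547-58112720, plus strand) at 1.51 ± 0.302 and Fgfr3 (chr5:33721674-33737068, plus strand) at 1.47 ± 0.236 CPM per kb likewise lay within each other's spread. Fgf10 (chr13:118669791-118792115, plus strand) came next at 0.626 ± 0.191 CPM per kb and Fgf12 (chr16:28160098-28753068, minus strand) at 0.330 ± 0.108 CPM per kb, with ranges that overlapped. Fgfr4 (chr13:55152640-55168759, plus strand) at 0.0656 ± 0.0361 and Fgf16 (X:105764279-105774939, plus strand) at 0.0376 ± 0.0418 CPM per kb were the lowest, and their ranges overlapped. Exons of Fgfr3 share 13.9% of their bases with a gene model on the opposite strand that has no row in the table. Exons of Fgf10, Fgfr1 and Fgfr2 share 1.66% to 3.04% with a neighbouring or antisense gene, and the strand setting of the counting is not given in the sources used here. The M21 interval of Fgfr2 reaches exons of Ctbp2 on the same strand. The RefSeq promoter window of Fgfr2, chr7:130266809-130267058, lies inside that interval.

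**Figure D1:**
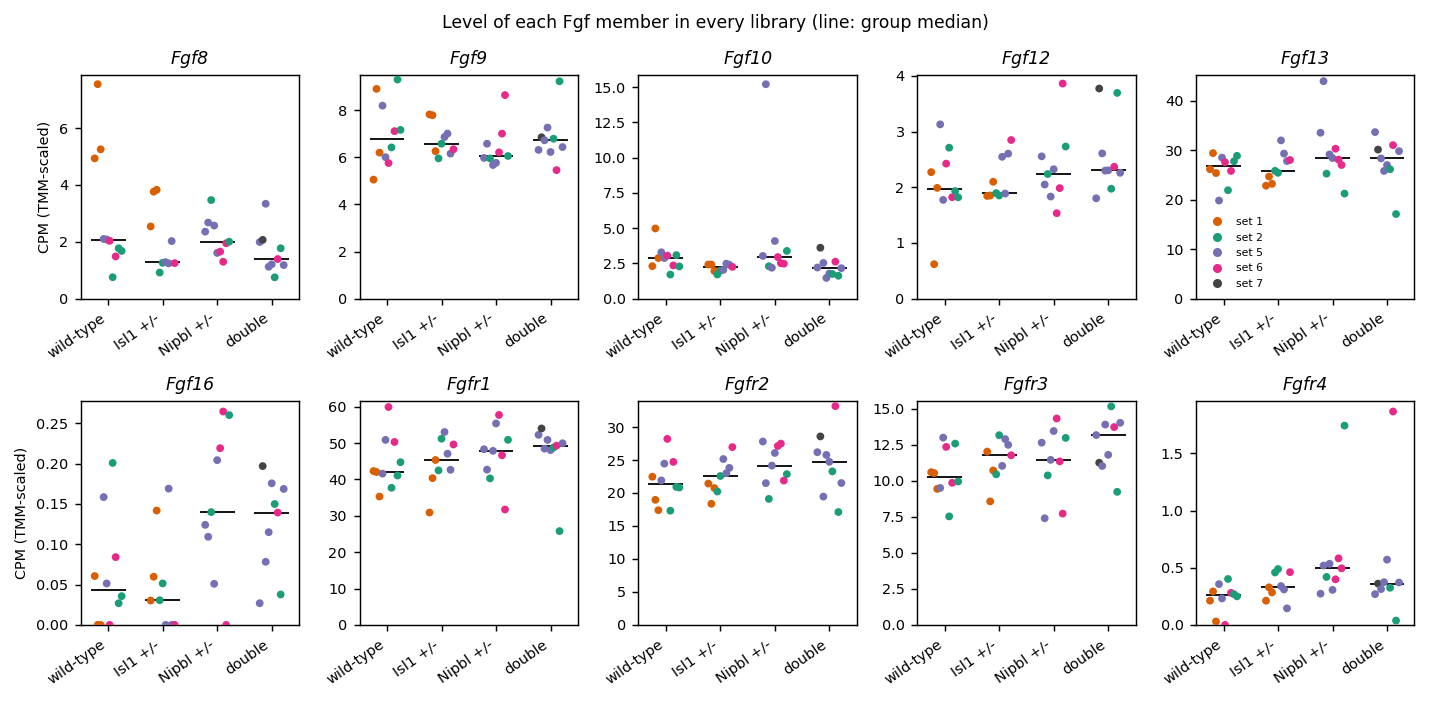
CPM after TMM scaling (y axis, linear, from 0) of each of the 10 members in every library, by genotype (x axis, wild-type n = 10, the others n = 9); points are libraries coloured by set number and lines are group medians. Genotypes overlap for every member, Fgf10 reaches 15.2 CPM in a single Nipbl +/- library, and the 5 highest Fgf8 libraries are all of set 1.

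None of the 9 members that could be tested passed an adjusted p of 0.05 in any of the 6 comparisons (edgeR quasi-likelihood test, Benjamini-Hochberg over 15046 genes). Fgf16 had too few counts to be tested. Of all genes tested, 0% passed in Isl1 +/- against wild-type, 1.71% (1.20% higher, 0.518% lower) in Nipbl +/- against wild-type and 2.60% (1.77% higher, 0.824% lower) in double heterozygotes against wild-type. The share was 4.02% (2.67% higher, 1.36% lower) for the effect of Nipbl loss averaged over Isl1 +/+ and Isl1 +/-, 0.173% (0.146% higher, 0.0266% lower) for the effect of Isl1 loss averaged over Nipbl +/+ and Nipbl +/- and 0% for the interaction of Nipbl and Isl1. At an unadjusted p under 0.05 the members numbered 1 (Fgf8), 1 (Fgfr4) and 2 (Fgf10 and Fgfr4) of 9 in the 3 comparisons with wild-type, in that order, where the shares of all genes were 5.89%, 15.1% and 11.6%. They numbered 1 (Fgfr4) of 9 for the averaged Nipbl effect and 2 (Fgf8 and Fgf10) of 9 for the averaged Isl1 effect, where the shares of all genes were 14.9% and 12.2%. For the interaction 0 of 9 members and 2.73% of all genes did so. By another tool, DESeq2, 2 members passed the adjusted threshold, both for the averaged Isl1 effect.

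Fgf10, a ligand for the Fgfr2 splice form of epithelia that is made by second heart field cells, had lower values in hearts with 1 Isl1 allele, a difference short of the threshold. In wild-type its level ran from 1.71 CPM over a median of 2.88 CPM to 4.98 CPM (n = 10). In Isl1 +/- it ran from 1.71 over 2.25 to 2.48 CPM, a narrow range inside that of wild-type with all 9 libraries below the wild-type mean of 2.88 CPM. In Nipbl +/- it ran from 2.19 over 2.73 to 4.08 CPM in the 8 libraries other than replicate 2, which reached 15.2 CPM (median of all 9, 2.95 CPM). In double heterozygotes it ran from 1.47 over 2.16 to 3.61 CPM, with 8 of 9 libraries below the wild-type mean; the highest is the lone library of set 7. Of the 18 libraries with 1 Isl1 allele, 17 lay below the median of the 19 libraries with 2 alleles (medians 2.18 and 2.88 CPM). The groups overlapped in every comparison.

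The fitted log2 change of Fgf10 for the averaged Isl1 effect was −0.77 (SE 0.18, 95% interval −1.14 to −0.39, unadjusted p 0.000202, adjusted p 0.0701, edgeR). Against wild-type the fitted log2 change was −0.47 (SE 0.25, adjusted p 0.839, edgeR) in Isl1 +/- and −0.58 (SE 0.28, adjusted p 0.411, edgeR) in double heterozygotes. In Nipbl +/- against wild-type it was 0.48 (SE 0.27, adjusted p 0.400, edgeR). Without Nipbl +/- replicate 2 the averaged Isl1 effect was −0.49 with an adjusted p of 0.0277, a smaller change past the threshold (edgeR). Without that library the fitted log2 change in Nipbl +/- against wild-type was 0.03, and the double heterozygous change was −0.51 with an adjusted p of 0.0473 (edgeR). Leaving out wild-type replicate 7 likewise took the averaged Isl1 effect past the threshold, with a log2 change of −0.79 and an adjusted p of 0.0460 (edgeR). The interaction estimate was −0.59 (SE 0.36, adjusted p 0.999, edgeR) and was −0.10 without Nipbl +/- replicate 2, so no difference of the Isl1 effect between Nipbl genotypes was shown. The averaged Nipbl effect was 0.18 (SE 0.21, adjusted p 0.761, edgeR) and −0.02 without that library.

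Fgf8, a ligand that second heart field and pharyngeal cells use to survive and divide, also had lower values with 1 Isl1 allele, short of the threshold and beside large differences between sets. It ran from 0.753 over 2.06 to 7.55 CPM in wild-type (n = 10) and from 0.917 over 1.28 to 3.83 CPM in Isl1 +/- (n = 9). It ran from 1.30 over 2.00 to 3.47 CPM in Nipbl +/- (n = 9) and from 0.749 over 1.39 to 3.34 CPM in double heterozygotes (n = 9). The 3 highest wild-type libraries, at 4.94, 5.25 and 7.55 CPM, and the 2 highest Isl1 +/- libraries, at 3.76 and 3.83 CPM, were all of set 1. Of the 18 libraries with 1 Isl1 allele, 13 lay below the median of those with 2 (medians 1.34 and 2.03 CPM), and the groups overlapped.

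The fitted log2 change of Fgf8 for the averaged Isl1 effect was −0.55 (SE 0.16, 95% interval −0.87 to −0.23, unadjusted p 0.00123, adjusted p 0.151, edgeR). In Isl1 +/- against wild-type it was −0.57 (SE 0.21, unadjusted p 0.0106, adjusted p 0.745, edgeR). In double heterozygotes it was −0.29 (SE 0.24, adjusted p 0.718, edgeR) and in Nipbl +/- 0.24 (SE 0.22, adjusted p 0.632, edgeR), both against wild-type. The averaged Nipbl effect was 0.26 (SE 0.17, adjusted p 0.519, edgeR), and the interaction was 0.04 (SE 0.30, adjusted p 0.999, edgeR). Without Nipbl +/- replicate 2 these 6 values were −0.56, −0.59, −0.30, 0.22, 0.25 and 0.06, with none past the threshold. The sign of the Fgf8 change with Nipbl loss depends on the set term, since it was −0.37 for the averaged Nipbl effect in a fit without it.

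The set number was associated with Fgf8 at an adjusted p of 2.71e-05 and with Fgfr2 at 0.00116, in a test in which 38.2% of all genes passed (edgeR). Fgf8 averaged 4.64 CPM in the 6 libraries of set 1, 1.60 CPM in the 9 of set 2, 1.91 CPM in the 14 of set 5 and 1.58 CPM in the 7 of set 6. Fgfr2 was lowest in set 1 at 19.9 CPM and stood at 20.5, 24.0 and 27.1 CPM in sets 2, 5 and 6. The other 7 tested members did not pass in this test. Since set 1 holds no library with Nipbl loss, comparisons by eye of the group means of Fgf8 mix genotype and set.

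Within sets, the comparison by Isl1 genotype could be made 7 times: Isl1 +/- against wild-type in sets 1, 2, 5 and 6, and double heterozygous against Nipbl +/- in sets 2, 5 and 6. The mean log2 level of Fgf8 differed by −0.80, −0.27, −0.48 and −0.46 in the first 4 and by −1.15, −0.48 and −0.20 in the other 3. That of Fgf10 differed by −0.50, −0.31, −0.41 and −0.25 in the first 4 and by −0.71, −1.16 and −0.01 in the other 3. Both ligands were lower in 7 of 7 within-set differences, as were 1.46% of all genes tested, and no other tested member was. Without Nipbl +/- replicate 2 the set 5 difference between double heterozygous and Nipbl +/- was −0.58 for Fgf10 and −0.40 for Fgf8, and set 6 holds a single library of Isl1 +/- and of double heterozygotes. Fgfr3 was higher in 7 of 7, as were 3.50% of all genes, and its averaged Isl1 effect did not pass the test.

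**Figure D2:**
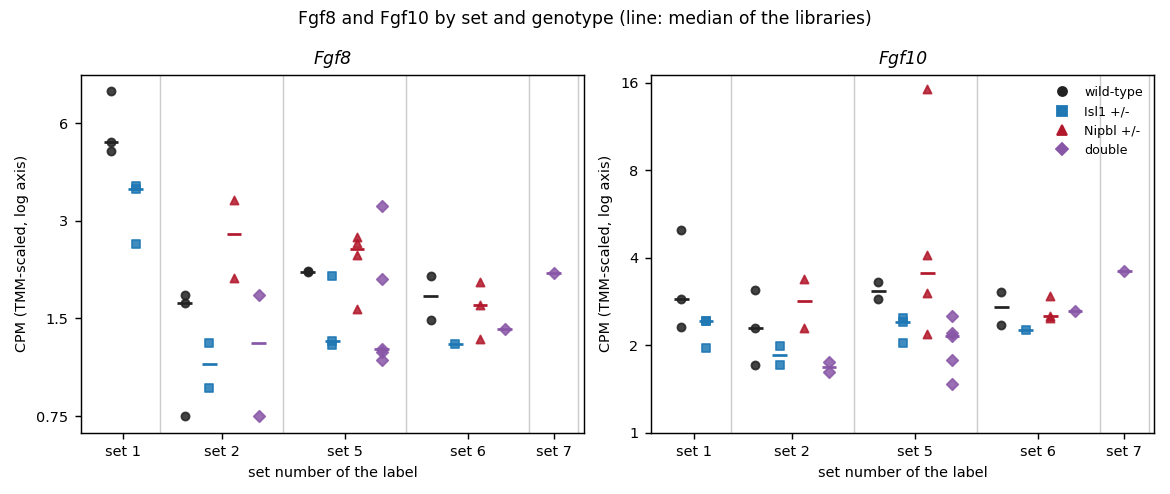
CPM after TMM scaling (y axis, log scale) of Fgf8 and Fgf10 in each library, by set number (x axis) and genotype (symbols and colours; n = 1 to 5 libraries per genotype and set); lines are medians. Fgf8 is highest in set 1, and in each set that allows the comparison the mean log2 level of both ligands is lower in the genotype with 1 Isl1 allele.

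Second heart field markers were examined beside Fgf8 and Fgf10, since these ligands are known from that population. The summed level of 9 such markers ran from 296 to 392 CPM in wild-type, 307 to 374 CPM in Isl1 +/-, 293 to 386 CPM in Nipbl +/- and 286 to 405 CPM in double heterozygotes. For the averaged Isl1 effect, 0 of the 9 markers passed the threshold and 3 had an unadjusted p under 0.05 (all genes: 12.2%), with log2 changes of the 9 from −0.33 to 0.30 and a median of −0.03, beside −0.01 over all genes tested (edgeR). Isl1, the gene that defines this comparison, is 1 of the 9. It gave the lowest change and the smallest p (−0.33, unadjusted p 0.0196, edgeR). In Nipbl +/- against wild-type 2 of the 9 were higher (all genes: 1.20%), Isl1 itself (log2 change 0.79, adjusted p 0.0252, edgeR; not past the threshold without wild-type replicate 4, 6, 8 or 9 or Nipbl +/- replicate 9, set 1, 2 or 6, or the 6 libraries with liver markers named below) and Tbx1 (log2 change 1.38, adjusted p 0.0322, edgeR), a T-box factor of pharyngeal mesoderm. The marker lists of other cells are given for the averaged Isl1 comparison. All 6 erythroid markers that could be tested had log2 changes above 0 (0.93 to 1.16, median 1.04) and an unadjusted p under 0.05, as did 6 of 7 epicardial markers, while 0 erythroid and 1 epicardial marker passed the adjusted threshold (edgeR). Of 5 neural crest and neuron markers tested, 4 had log2 changes below 0 (−0.47 to 0.02 over the 5, median −0.15), as did 5 of 8 cardiomyocyte markers (−0.20 to 0.06, median −0.06), and 1 of each list had an unadjusted p under 0.05 with 0 past the adjusted threshold (edgeR). Endothelial and endocardial markers had 5 of 6 above 0 and 3 of 6 at an unadjusted p under 0.05 (median 0.17), cushion mesenchyme markers 4 of 6 above 0 and 2 of 6 (median 0.04), and foregut and pharyngeal endoderm markers 3 of 3 tested above 0 and 1 of 3 (median 0.28), with 0 past the adjusted threshold (edgeR). Liver markers had 1 of 3 tested above 0, the only skeletal muscle precursor marker tested lay below 0, and 0 of these 4 had an unadjusted p under 0.05. The highest erythroid sum, 105500 CPM, was that of wild-type replicate 7, 1 of the 2 libraries whose removal took Fgf10 past the threshold, the other being Nipbl +/- replicate 2. The part of these populations in the Fgf8 and Fgf10 values was not tested.

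Among the genes whose pattern across libraries was most like that of Fgf10, by Pearson correlation of log2 CPM centred within each set over 36 libraries, were Rbm24 (r = 0.832) and Ripk4 (r = 0.831). Without Nipbl +/- replicate 2 these correlations were 0.463 and 0.539, and the closest genes were then Grhl1 (0.728), Prdm6 (0.644) and Cadm1 (0.630). For Fgf8 the closest were A930024E05Rik (0.752), Cck (0.658) and Psrc1 (0.644), at 0.768, 0.643 and 0.691 without that library. Fgf8 and Fgf10 correlated at 0.489 over the 36 libraries and 0.554 without it. All values share libraries, depth and genotype differences, so they describe likeness only.

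Fgf9, the ligand from epicardium and endocardium, did not differ between genotypes beyond the spread of libraries. It averaged 7.02 ± 1.40 CPM in the wild-type group (SD, n = 10), 6.76 ± 0.683 CPM in Isl1 +/-, 6.43 ± 0.928 CPM in Nipbl +/- and 6.81 ± 1.04 CPM in double heterozygotes (SD, n = 9 each). Apart from the interaction, the 95% intervals of its log2 changes lay between −0.33 and 0.23. Epicardial markers moved in the same hearts: 5 of 7 were higher in double heterozygotes against wild-type (all genes, higher: 1.77%), among them Wt1 (log2 change 0.53, adjusted p 6.05e-05, edgeR) and Upk3b (log2 change 0.72, adjusted p 5.03e-04, edgeR). The summed level of the 7 markers had a median of 411 CPM in wild-type and 634 CPM in double heterozygotes.

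Fgf16, the other ligand of this kind, was barely detected. Its counts ran from 0 to 11 per library, and 7 libraries had 0 counts, which allows up to 3 counts or 0.0566 to 0.0990 CPM in those libraries. The median level was 0.140 CPM over the 18 libraries labelled with 1 working Nipbl allele and 0.0357 CPM over the 19 with 2, and 16 of the 18 lay above the lower of these medians. In a fit without the filter on low counts, its log2 change was 1.40 (SE 0.66, unadjusted p 0.0404, adjusted p 0.354, edgeR) in Nipbl +/- against wild-type. The averaged Nipbl effect in that fit was 1.21 (SE 0.52, unadjusted p 0.0272, adjusted p 0.299, edgeR). Neither passed the threshold. Nipbl +/- replicate 2 is among the 18; the Nipbl +/- mean was 0.152 ± 0.0920 CPM with it (SD, n = 9) and 0.158 ± 0.0968 CPM without it (SD, n = 8), and the fit without the filter was not repeated without it.

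Fgf13 and Fgf12, the intracellular members, did not pass the threshold in any comparison. Fgf13 averaged 26.2 ± 3.11 CPM in the wild-type group (SD, n = 10), 26.6 ± 2.99 CPM in Isl1 +/-, 29.7 ± 6.35 CPM in Nipbl +/- and 27.7 ± 4.70 CPM in double heterozygotes (SD, n = 9 each). Its highest library, at 44.0 CPM, was Nipbl +/- replicate 2, without which Nipbl +/- stood at 27.9 ± 3.62 CPM (SD, n = 8). Fgf12 averaged 2.05 ± 0.670 CPM in the wild-type group (SD, n = 10), 2.16 ± 0.397 CPM in Isl1 +/-, 2.35 ± 0.675 CPM in Nipbl +/- and 2.56 ± 0.702 CPM in double heterozygotes (SD, n = 9 each). Apart from the interaction, the 95% intervals of the log2 changes lay between −0.25 and 0.30 for Fgf13 and between −0.28 and 0.57 for Fgf12. The intervals of Fgf12 thus leave room for larger differences than those of Fgf13.

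Fgfr1, Fgfr2 and Fgfr3, the 3 receptors of higher level, differed little between genotypes relative to the spread of libraries. Fgfr1 averaged 44.6 ± 7.25 CPM in the wild-type group (SD, n = 10), 44.7 ± 6.71 CPM in Isl1 +/-, 46.8 ± 7.90 CPM in Nipbl +/- and 47.5 ± 8.36 CPM in double heterozygotes (SD, n = 9 each). Fgfr2, in the same order, stood at 21.7 ± 3.43, 22.5 ± 2.63, 24.2 ± 3.09 and 24.4 ± 4.83 CPM. Fgfr2 also differed between sets, and the part of the sets in these means was not tested. With the set term the 95% intervals of Fgfr2 lay between −0.11 and 0.24 on the log2 scale, apart from the interaction. Those of Fgfr1 lay between −0.27 and 0.22, again apart from the interaction. Fgfr3 stood at 10.54 ± 1.69, 11.5 ± 1.44, 11.3 ± 2.43 and 12.6 ± 1.88 CPM in that order, and 5 of 9 double heterozygous libraries lay above every wild-type library. Apart from the interaction, the intervals of Fgfr3 lay between −0.20 and 0.49, and it passed the threshold in no comparison.

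Fgfr4, a receptor known from liver and endoderm, had its highest values in hearts labelled with 1 working Nipbl allele but was near the limit of detection, with 0 to 67 counts per library. In wild-type it ran from 0 over 0.259 to 0.402 CPM (n = 10), where the library with 0 counts allows up to 0.0782 CPM. In Isl1 +/- it ran from 0.145 over 0.329 to 0.489 CPM (n = 9), with 3 of 9 libraries above every wild-type library. In Nipbl +/- it ran from 0.273 over 0.495 to 1.74 CPM (n = 9), with 6 of 9 libraries above every wild-type library. In double heterozygotes it ran from 0.0377 over 0.361 to 1.87 CPM (n = 9), with 2 of 9 above every wild-type library. The fitted log2 change was 1.27 (SE 0.46, unadjusted p 0.00964, adjusted p 0.168, edgeR) in Nipbl +/- and 1.21 (SE 0.49, unadjusted p 0.0185, adjusted p 0.268, edgeR) in double heterozygotes, both against wild-type. The averaged Nipbl effect was 0.92 (SE 0.35, unadjusted p 0.0135, adjusted p 0.168, edgeR). Without Nipbl +/- replicate 2 these changes were 1.25, 1.23 and 0.91, also short of the threshold.

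Liver and foregut markers were present in some hearts and are given beside Fgfr4. The summed level of 6 liver markers had medians of 0.901 CPM in wild-type, 1.08 CPM in Isl1 +/-, 1.51 CPM in Nipbl +/- and 1.24 CPM in double heterozygotes. It reached 361 CPM in Nipbl +/- replicate 9, the library with 1.74 CPM of Fgfr4, where alpha-fetoprotein (Afp) stood at 301 CPM and albumin (Alb) at 25.7 CPM. Double heterozygous replicate 7, with 1.87 CPM of Fgfr4, had a liver sum of 15.7 CPM and the highest sum of 6 foregut and pharyngeal endoderm markers, at 12.6 CPM. Wild-type replicate 8 had a similar liver sum of 15.7 CPM with 0.280 CPM of Fgfr4. Alb was at 0 in 21 of the 37 libraries, and in the endoderm list Shh was at 0 in 32 and Nkx2-1 in 31. Without the 6 libraries whose liver markers summed to over 5 CPM, the log2 change of Fgfr4 was 1.11 (adjusted p 0.275, edgeR) in Nipbl +/- and 0.48 (adjusted p 0.95, edgeR) in double heterozygotes, and the averaged Nipbl effect was 0.52 (adjusted p 0.597, edgeR). Leaving out double heterozygous replicate 7 alone gave 0.50 in double heterozygotes, and leaving out Nipbl +/- replicate 9 alone gave 0.78 in Nipbl +/-. The double heterozygous value thus rested in large part on the libraries left out.

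**Figure D3:**
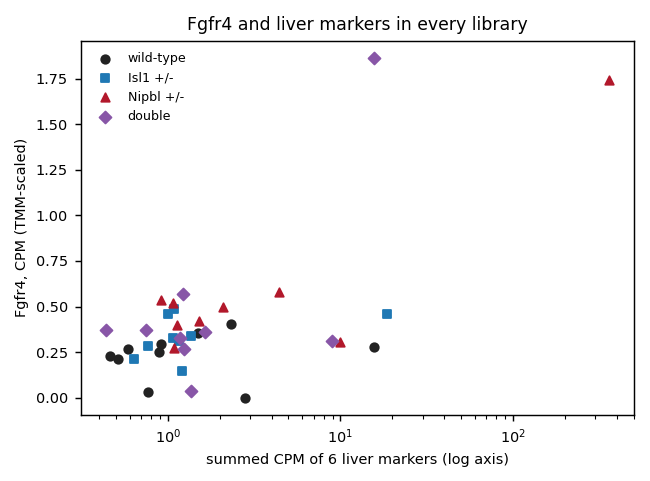
Fgfr4 level (y axis, CPM after TMM scaling) against the summed CPM of 6 liver markers (x axis, log scale) in all 37 libraries; symbols and colours mark the genotypes. The 2 libraries above 1.5 CPM of Fgfr4 are Nipbl +/- replicate 9, with a liver sum of 361 CPM, and double heterozygous replicate 7, with 15.7 CPM.

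**Figure D4:**
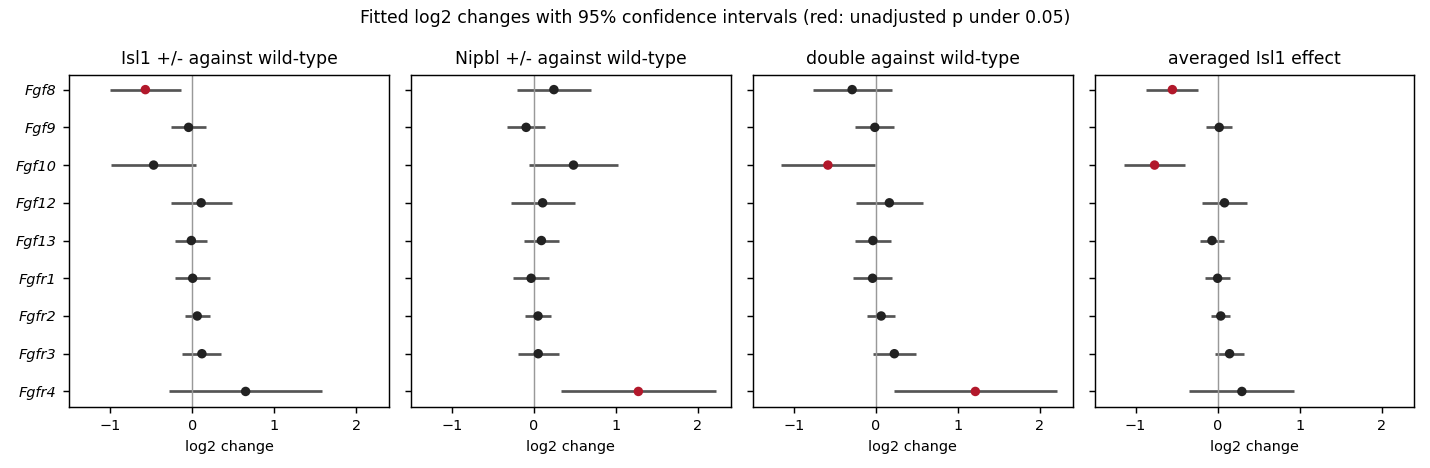
Fitted log2 changes (x axis) with 95% confidence intervals of the 9 tested members (y axis) in 4 comparisons, from the edgeR fit with set as a term; red marks an unadjusted p under 0.05. Fgf8 and Fgf10 lie below 0 in the averaged Isl1 effect, Fgfr4 lies above 0 with wide intervals in the 2 comparisons with Nipbl loss, and the other 6 members have intervals that include 0.

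Among the other genes of the pathway, differences past the threshold were found in the group of co-receptors, heparan sulfate enzymes and other extracellular partners, of which 19 of 21 could be tested. In double heterozygotes against wild-type 2 were higher and 3 lower, where 1.77% and 0.824% of all genes were. The median log2 change of the group was −0.05 there, beside −0.00 over all genes tested. Sulf1, which removes sulfate groups from heparan sulfate outside the cell, rose, with a log2 change of 0.62 ± 0.11 (SE; edgeR, adjusted p 0.00133). Flrt2, a membrane protein that binds Fgf receptors, rose, with 0.41 ± 0.11 (SE; edgeR, adjusted p 0.0299). Hs6st2, which adds sulfate groups to heparan sulfate, fell, with −0.32 ± 0.07 (SE; edgeR, adjusted p 0.00622). Flrt3, related to Flrt2, fell, with −0.32 ± 0.08 (SE; edgeR, adjusted p 0.0145). Sdc2, a heparan sulfate proteoglycan, fell, with −0.35 ± 0.09 (SE; edgeR, adjusted p 0.0337).

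In Nipbl +/- against wild-type 1 of the 19 extracellular partners was lower (all genes: 0.518%), Hs6st2 at −0.28 ± 0.07 (SE of the log2 change; edgeR, adjusted p 0.0193). For the averaged Nipbl effect 3 of 19 were lower (all genes: 1.36%): Hs6st2 at −0.25 (adjusted p 0.00195, edgeR), Sdc2 at −0.28 (adjusted p 0.00984, edgeR) and Flrt3 at −0.23 (adjusted p 0.00989, edgeR). For the averaged Isl1 effect 1 of 19 was higher (all genes: 0.146%), Sulf1 at 0.43 (SE 0.08, adjusted p 0.0103, edgeR). Sulf1 lost this call at log2 changes of 0.37 without the set term, 0.44 without set 1, 0.46 without set 2 and 0.32 without set 5, and in double heterozygotes without set 5, where the log2 change was 0.41 (adjusted p 0.350, edgeR). The calls of Hs6st2, Flrt3, Sdc2 and Flrt2 were lost in some fits with fewer libraries or without the set term. Hs6st2 lost all 3 calls in a fit without the set term (−0.08 in Nipbl +/-, −0.11 in double heterozygotes, −0.05 averaged), under the replicate block described in the closing section and without set 2; it also lost that in Nipbl +/- without set 1 or 6 and that in double heterozygotes without set 5. With a set left out these Hs6st2 changes were still −0.37 to −0.21. Flrt3 lost both calls without the set term (−0.24 and −0.14), under that block and without set 2 or 5, and the averaged one without set 6 (−0.34 to −0.20 with a set left out). Sdc2 in double heterozygotes passed in none of the fits without the set term (−0.24), under the block (−0.21) or without set 1, 2, 5 or 6 (−0.37 to −0.31), and its averaged call was lost without the set term (−0.19) or set 2 or 6 (−0.25 and −0.29). Flrt2 lost its call without set 2 or 5, at log2 changes of 0.38 and 0.40. Without the 6 libraries with liver markers, the calls of Flrt2 (0.36), Sdc2 in double heterozygotes and averaged (−0.36 and −0.25) and Hs6st2 in Nipbl +/- and double heterozygotes (−0.29 and −0.32) were lost at log2 changes close to those above. Without Nipbl +/- replicate 2 each of these genes kept its calls. Single libraries decided 3 calls. Flrt2 did not pass without wild-type replicate 4, 5, 8 or 10 or double heterozygous replicate 1, 3, 5, 7 or 8 (lowest log2 change 0.37). Sdc2 in double heterozygotes did not pass without wild-type replicate 9 or 10 or double heterozygous replicate 3 or 4 (−0.34 to −0.32), nor Hs6st2 in Nipbl +/- without Nipbl +/- replicate 3 (−0.25). Epicardial markers were higher in the same comparisons, 5 of 7 in double heterozygotes (all genes: 1.77%), 3 of 7 for the averaged Nipbl effect (2.67%) and 1 of 7 for the averaged Isl1 effect (0.146%), and their part in these changes was not tested.

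Of the other ligands of the family 8 of 16 could be tested, and of the intracellular relay from Frs2 to Erk 17 of 17. All 11 feedback inhibitors and all 3 Ets factors Etv1, Etv4 and Etv5 could be tested. In these 4 groups 0 genes passed the threshold in any of the 6 comparisons (edgeR); at an unadjusted p under 0.05 the averaged Isl1 effect held 1 of 8, 1 of 17, 1 of 11 and 0 of 3, in the order given, beside 12.2% of all genes. The averaged Nipbl effect held 2 of 8, 0 of 17, 2 of 11 and 1 of 3, beside 14.9% of all genes, with the smallest adjusted p at 0.0534 among the feedback inhibitors and 0.0559 among the ligands (edgeR). Nipbl +/- against wild-type held 1 of 8, 1 of 17, 2 of 11 and 2 of 3, beside 15.1%. Double heterozygotes against wild-type held 0 of 8, 1 of 17, 1 of 11 and 0 of 3, beside 11.6%. For the averaged Isl1 effect, in which Fgf8 and Fgf10 had their smallest p-values, the median log2 change was 0.02 over the feedback inhibitors and −0.01 over the Ets factors, beside −0.01 over all genes tested. For the averaged Nipbl effect the medians were 0.01 and −0.05, beside 0.01 over all genes. The 8 other ligands tested had higher medians with Nipbl loss. These were 0.32 in Nipbl +/- (7 of 8 above 0) and 0.26 in double heterozygotes (6 of 8), both against wild-type. Their median for the averaged Nipbl effect was 0.22 (6 of 8). Over all genes tested the medians were 0.01, −0.00 and 0.01 in that order. Nipbl +/- replicate 2, where the 16 other ligands summed to 85.8 CPM, is among these libraries.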

How the data were processed

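Per the labels' protocols, total RNA of E10.5 hearts was purified (NEB Monarch kit) and turned into libraries with NEBNext Ultra II RNA. The authors deposited 1 table of whole-number read counts per gene symbol and library, not normalized. STAR, featureCounts and the builds GRCm38 and mm10 are named, without versions, in the submitters' processing notes; strand setting, annotation and filters are not given in the sources used here. Columns were matched to samples by the IVF label, and genotypes were taken from the titles. The table held 25239 rows, of which 4273 were 0 in every library.

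The filterByExpr filter by genotype, at a count of 10 and a total of 15, left 15046 genes. After TMM scaling, edgeR 4.0.16 (in R 4.3.3 with limma 3.58.1) was used for a quasi-likelihood fit over all 37 libraries, in which genotype and set were factors. Tests were two-sided, with Benjamini-Hochberg adjustment over all genes within each comparison and a threshold of 0.05. The set term test was added after the counts were examined. Log2 CPM used a prior count of 2, CPM levels are TMM-scaled, and summed exon lengths are from GENCODE M21, which matched 24374 symbols. Depth was 23.4 to 51.0 M counts (mega-counts); floors of 3 counts cover counting error only, since the reads carry no molecular identifiers. In 153 pairs of libraries of the same genotype chi-square divided by its degrees of freedom was at least 7.19, so none was counted as a duplicate.

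The members, gene lists and tests were chosen with earlier results of these data known. All 10 members are described by level. Fitted changes are named for members at an unadjusted p under 0.05 and for Fgf8 and Fgf10 in every comparison, for pathway genes past the threshold, and for Nipbl and Isl1; the marker genes Tbx1, Wt1 and Upk3b were named after their values were seen. Likeness, as the 3 genes of highest correlation, is given for the 2 members of smallest p; 1 such gene is not reported here. Alternatives were no set term, the replicate number in its place, DESeq2 1.42.0, other size factors, no filter, a floor of 10 counts in each library, sva 3.50.0 with 2 surrogate variables, each set and each library left out, and, added after seeing the data, the 6 libraries with liver markers left out. The model was tested on simulated counts. Other tools were Python 3.11.15, pandas 2.3.3 and matplotlib 3.10.9.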

Additional observations from a re-analysis of the deposited data

Results flagged for a closer look

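In 8 of 40 groups, 1 library stood apart from the others of its genotype by a test of its gap to the nearest one. Chance alone gives this in about 1 in 20 groups of independent, normally spread values. CPM near the limit of detection need not be so spread, and the 40 groups share libraries, so that rate is only a rough guide. Fgf10 reached 15.2 CPM in Nipbl +/- replicate 2, where the next library stood at 4.08 CPM, and 4.98 CPM in wild-type replicate 2, where the next stood at 3.29 CPM. Fgfr4 reached 1.74 CPM in Nipbl +/- replicate 9 and 1.87 CPM in double heterozygous replicate 7, beside next values of 0.582 and 0.570 CPM. Double heterozygous replicate 8 gave 3 of the 8: Fgf9 was highest there at 9.23 CPM, while Fgf13 at 17.1 CPM and Fgfr1 at 25.8 CPM were lowest. Its summed level of 7 erythroid markers, 53640 CPM, was the highest of its genotype, and the part of this in the 3 values was not tested. Fgf9 also stood apart at 8.65 CPM in Nipbl +/- replicate 8.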

How the results depend on the processing

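Counts of genes past the threshold are given for Isl1 +/-, Nipbl +/- and double heterozygotes against wild-type, then for the averaged Nipbl and the averaged Isl1 effect; the main counts are 0, 258, 391, 605 and 26, and the interaction had 0 under every alternative run. Leaving out each library in turn gave ranges of 0 to 2, 167 to 410, 244 to 839, 436 to 1044 and 4 to 73. The extremes were Nipbl +/- replicate 2 left out for the highest of the first 4 and wild-type replicate 7 for the highest of the last, with Nipbl +/- replicate 9 and double heterozygous replicate 4 for the lowest counts of Nipbl +/- and double heterozygotes. Counts that moved by over 1.5 times were as follows. Without the set term they were 467 for Nipbl +/- and 1045 and 0 for the averaged effects. With a replicate block, that is the replicate number of the titles in place of the set, they were 610 for double heterozygotes and 993 and 9 for the averaged effects. With 2 surrogate variables they were 9, 1403, 1737, 2130 and 220. With DESeq2 they were 11 for Isl1 +/-, 459 for Nipbl +/- and 115 for the averaged Isl1 effect. Without set 1 they were 118, 235 and 0 for Nipbl +/-, double heterozygotes and the averaged Isl1 effect. Without set 2 they were 31, 113, 152 and 0, and without set 5 they were 124, 67, 275 and 0, for Nipbl +/-, double heterozygotes and the 2 averaged effects. Without set 6 they were 223, 401 and 7 for double heterozygotes and the 2 averaged effects. Without the 6 libraries with liver markers they were 101, 159 and 269 for Nipbl +/-, double heterozygotes and the averaged Nipbl effect.

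Members past the threshold were 0 in each comparison and stayed at 0 except as follows. In double heterozygotes there was 1 under the replicate block (Fgf8, log2 change −0.78, adjusted p 0.0230, edgeR), 1 with 2 surrogate variables (Fgf10, −0.61, adjusted p 0.00859) and 0 to 1 with single libraries left out. For the averaged Isl1 effect there was 1 with 2 surrogate variables (Fgf10, −0.57, adjusted p 0.00816), 2 with DESeq2 (Fgf10, −0.77, adjusted p 0.0110, and Fgf8, −0.56, adjusted p 0.0443), 1 without the 6 libraries with liver markers (Fgf8, −0.77, adjusted p 0.0493) and 0 to 1 with single libraries left out. The averaged Isl1 effect was below 0 in 49 of 49 settings for Fgf10 (−0.96 to −0.43, 4 past the threshold) and for Fgf8 (−0.77 to −0.48, 2 past it); the adjusted p of Fgf10 was 0.601 without the set term, 0.212 under the replicate block and 0.709 without set 5. The cause of these shifts was not tested.

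Among the named changes, signs turned in these cases, beside those in the averaged Isl1 effect: Fgfr1 was below 0 in 33 of 49 settings, Fgf9 in 7 and Fgfr2 in 3, with values from −0.10 to 0.10 over the 3 genes, and Fgfr4 (0.30 as reported) in 3 of 48, from −0.19 to 0.59. Fgf8 in Nipbl +/- against wild-type was −0.45 without the set term, −0.31 under the replicate block and −0.048 without set 2, and its averaged Nipbl effect was −0.37 and −0.27 in the first of these fits and under the block. The averaged Nipbl effect of Fgf10 was −0.042 with 2 surrogate variables and ran from −0.020 to 0.23 with single libraries left out. The interaction of Fgf8 was −0.092 without set 1, −0.066 without set 5, −0.086 without set 6, −0.31 without the libraries with liver markers and −0.18 to 0.20 with single libraries left out, and that of Fgf10 was 0.027 without set 5. Of 381 fitted changes of named genes under the settings other than single libraries, 314 kept sign and side of the threshold, and of 1184 with single libraries left out, 1154 did. The replicate numbers do not pair the libraries: 17 of 54 same-numbered pairs correlated above 0.1 (median 0.03), and 3 libraries correlated best with their own number. Depth limits Fgfr4 and Fgf16, with at most 67 and 11 counts per library.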

Other observations

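Other ligands of the family were also extreme in Nipbl +/- replicate 2, the library that goes against its label. Fgf11, of the intracellular branch, stood at 73.0 CPM there and at 25.6 CPM in double heterozygous replicate 3, beside a median of 5.48 CPM over all 37 libraries. Fgf23, a hormone-like ligand, stood at 5.27 CPM there, beside a median of 0.914 CPM. Fgf1 and Fgf18 had their lowest levels there, at 1.99 and 1.31 CPM, beside medians of 7.73 and 5.44 CPM. The summed level of the 11 feedback inhibitors and that of the 3 Ets factors also had their Nipbl +/- maxima in this library, at 374 and 92.2 CPM, beside medians of 240 and 59.2 CPM in that genotype.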
